A study of Mus musculus with 15 samples.

Results

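The genes described here are the 4 numbered atypical chemokine receptors, Ackr1, Ackr2, Ackr3 and Ackr4, and the related receptor gene Gpr182. They were chosen by name as a receptor family, and make up 5 of the 21839 genes in the count table. The libraries come from sorted lymphatic endothelial cells of C57bl/6 mice, aged 10 weeks and bearing a transplant of a mouse melanoma line that the labels call lymphangiogenic. The cells came from the tumor (Tumor), from the lymph node that drains it (TdLN) and from a lymph node that does not (NdLN), with 5 libraries in each group. In all 3 groups the cells had been sorted as negative for CD45 and positive for CD31 and gp38, the latter encoded by Pecam1 and Pdpn. All nodes, also the non-draining ones, came from animals with a tumor, so no group stands for a tumor-free mouse. The labels do not say whether a library is 1 animal or a pool, so a p-value here speaks only of the spread among libraries.

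Atypical chemokine receptors bind chemokines without the usual G protein signal, and most of them take the bound chemokine into the cell. They thereby clear chemokines or shape their gradients. Lymphatic endothelium is a known site of Ackr2, which takes up inflammatory CC chemokines. Ackr4, which takes up the CCR7 ligands, is known from the lymphatic cells of the node's sinus. Ackr3 takes up Cxcl12 and has been described as a receptor for adrenomedullin. Ackr1, the Duffy antigen receptor, binds inflammatory CC and CXC chemokines and is known from venules and red cells. Gpr182, a receptor of lymphatic and sinusoidal endothelium, has been proposed as a further scavenger of CXC chemokines.

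All 5 genes passed the filter on low counts, and so were tested. Total counts ran from 31894931 to 37437282 for NdLN, from 32134127 to 37043976 for TdLN and from 23830337 to 34577494 for Tumor libraries. Levels are given as CPM, counts scaled to a common library size. The summed level of 8 lymphatic endothelial markers was 7737 to 10080 CPM for NdLN, 6622 to 8259 CPM for TdLN and 2031 to 3592 CPM for Tumor libraries, with none of the 8 at 0. The summed level of 8 pigment cell markers was 12.0 to 37.5 CPM in the node libraries and 24123 to 39598 CPM in the Tumor libraries, where it made up 2.65% to 4.12% of all counts. The 6 fibroblast markers summed to 226 to 479 CPM for NdLN, 99.3 to 277 CPM for TdLN and 778 to 5700 CPM for Tumor libraries. Markers of leukocytes summed to 2.30 to 22.5 CPM in the nodes and 34.7 to 51.8 CPM in Tumor libraries. The part of these other cells in the receptor levels of the Tumor libraries was not tested. In bulk libraries such as these, fewer cells of a type and less RNA per cell cannot be told apart.

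Per the annotation of build GRCm38 (GENCODE M21), Ackr2 (ENSMUSG00000044534) lies on chromosome 9 from 121898355 to 121911074 on the plus strand, and Ackr4 (ENSMUSG00000079355) on the same chromosome from 104084157 to 104126933 on the minus strand. Ackr3 (ENSMUSG00000044337) lies on chromosome 1 from 90203980 to 90216751 on the plus strand, and Ackr1 (ENSMUSG00000037872) on chromosome 1 from 173331886 to 173333750 on the minus strand. Gpr182 (ENSMUSG00000058396) lies on chromosome 10 from 127747276 to 127751732 on the minus strand. All 5 are protein-coding.

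The 2 upstream sequences below are those of Ackr2 and Ackr3, which overlap no annotated untranslated or coding bases. They are the 250 bases before the gene start from RefSeq (GRCm38.p6), which held 4 of the 5 genes, printed 5′ to 3′ along the gene. The upstream sequences of Ackr1 and Ackr4 overlap such bases and were not printed. Capitals mark the letters of the TATA box motif (TATAAA) and of the GC box motif (GGGCGG).
Ackr2, chr9:121898105-121898354, plus strand: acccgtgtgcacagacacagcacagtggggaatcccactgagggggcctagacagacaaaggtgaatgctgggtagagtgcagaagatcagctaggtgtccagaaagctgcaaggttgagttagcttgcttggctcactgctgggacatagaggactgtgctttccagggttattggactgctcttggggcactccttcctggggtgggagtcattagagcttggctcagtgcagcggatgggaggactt
Ackr3, chr1:90203730-90203979, plus strand: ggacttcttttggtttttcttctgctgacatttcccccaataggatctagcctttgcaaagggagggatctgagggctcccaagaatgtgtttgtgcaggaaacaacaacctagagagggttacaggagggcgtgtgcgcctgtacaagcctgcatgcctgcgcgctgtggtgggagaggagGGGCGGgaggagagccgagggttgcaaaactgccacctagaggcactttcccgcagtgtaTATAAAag
In all, 4 motifs were searched on both strands, namely these 2, the AP-1 motif TGANTCA and the hypoxia response core ACGTG, none of which lies within another. In the Ackr3 window the letters TATAAA begin 8 bases, and the letters GGGCGG 68 bases, before the start. The Ackr2 window holds none of the 4 motifs. Of the windows not printed, that of Ackr4 holds TATAAA and ACGTG, and that of Ackr1 holds none of the 4. Among 32851 promoter windows of the same length, 12.4% held TATAAA, 32.7% GGGCGG, 6.75% TGANTCA and 16.6% ACGTG. A match is a description of letters, not of a bound site.

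Between the 2 kinds of node, Ackr2 and Gpr182 were higher and Ackr3 was lower in TdLN libraries, while Ackr1 and Ackr4 did not pass the test. These 3 of 5 calls compare with 3.49% of 13887 tested genes called (edgeR quasi-likelihood test, Benjamini-Hochberg adjusted p under 0.05), 1.84% higher and 1.64% lower. In Tumor against TdLN libraries all 5 genes were lower, where 30.1% of tested genes were called lower and 62.0% were called in either direction. In Tumor against NdLN libraries 4 of 5 were lower and Ackr2 did not pass, where 32.5% of tested genes were called lower and 66.5% in either direction. Calls against the tumor are therefore common, and the sizes differed widely between the 5 genes. The tumor comparisons share the Tumor libraries, and each of the other groups serves in 2 comparisons.

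**Figure D1:**
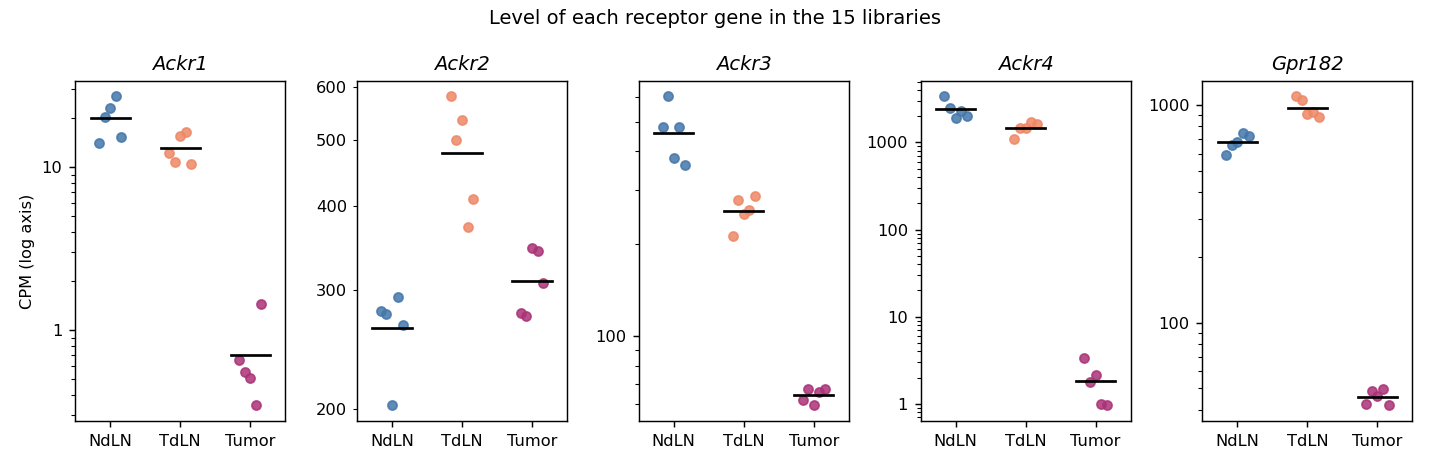
Level of each receptor gene in CPM (log axis, a separate scale for each gene) in the 5 libraries of NdLN, TdLN and Tumor; points are libraries and lines are group means. Ackr4 sits at 1107 to 3370 CPM in the node libraries and at 0.956 to 3.36 CPM in Tumor libraries, while the Ackr2 levels of Tumor and NdLN libraries overlap.

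Ackr2, the scavenger of inflammatory CC chemokines, was highest in the draining node, and its range in the tumor overlapped that of the non-draining node. Its level was 280, 277, 203, 294 and 266 CPM in NdLN libraries 1 to 5. In TdLN libraries 1 to 5 it was 581, 500, 536, 373 and 409 CPM. In Tumor libraries 1 to 5 it was 277, 275, 346, 343 and 308 CPM. Every TdLN library lay above every library of the other 2 groups, and the NdLN and Tumor ranges overlapped. The means were 264 ± 35.6, 480 ± 86.8 and 310 ± 34.2 CPM (SD, n = 5). The log2 fold change was 0.86 ± 0.14 (SE) in TdLN against NdLN, a 1.82-fold higher level (edgeR, adjusted p = 0.00372). In Tumor against TdLN it was -0.63 ± 0.13 (edgeR, adjusted p = 0.000809), and in Tumor against NdLN 0.23 ± 0.13 (edgeR, adjusted p = 0.139).

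Ackr4, which takes up Ccl19 and Ccl21, had the widest range of the 5 genes, being abundant in both kinds of node and at a few CPM in the tumor. Its level was 3370, 2457, 1933, 2275 and 2037 CPM in NdLN libraries 1 to 5, and 1107, 1470, 1465, 1739 and 1614 CPM in TdLN libraries 1 to 5. In Tumor libraries 1 to 5 it was 3.36, 1.78, 2.13, 1.006 and 0.956 CPM, from 33 to 82 counts a library and 294 counts in all. Every Tumor library lay far below every node library, and the 2 node groups did not overlap either. For scale, the groups did not overlap for 46.6% of tested genes in Tumor against TdLN and 54.6% in Tumor against NdLN. The means were 2414 ± 572, 1479 ± 237 and 1.85 ± 0.984 CPM (SD, n = 5). Against TdLN the Tumor level was 811-fold lower, a log2 difference of -9.66 ± 0.38 (edgeR, adjusted p = 3.29e-11). Only 0.202% of the tested genes had a lower log2 fold change in that comparison. Against NdLN the log2 fold change was -10.37 ± 0.39 (edgeR, adjusted p = 1.93e-11).

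Between the nodes the Ackr4 difference did not pass, with a log2 difference of -0.71 ± 0.26 (edgeR, adjusted p = 0.165). For scale, the 2 node groups did not overlap for 7.83% of tested genes. The same difference passed when only the 2 node groups were fitted (-0.70, edgeR, adjusted p = 0.0346) and with limma's voom (-0.63, adjusted p = 0.0168). Ackr4 also overlaps Acad11 on the opposite strand over 479 bases, 8.90% of its exon bases, and the strand setting of the counting is not given. Acad11 had 39.4 ± 5.80, 33.3 ± 5.74 and 18.7 ± 4.00 CPM (SD, n = 5) for NdLN, TdLN and Tumor. Per kb of exons, Acad11 stood at 1.91 ± 0.408 CPM per kb in Tumor libraries, above the 0.343 CPM per kb of Ackr4. Most lymph node sinus markers were also low in the tumor. The 7 genes summed to 5855 to 8282 CPM for NdLN, 5477 to 7290 CPM for TdLN and 73.0 to 128 CPM for Tumor libraries. Of these 7, 6 were lower in Tumor than in TdLN libraries, among them Clec4g and Marco, and Mrc1 did not pass. Against NdLN the count was 6 lower, with Mrc1 higher in Tumor libraries, at a log2 difference of 0.85 ± 0.31 (edgeR, adjusted p = 0.0246). Between the nodes Mrc1 was higher in TdLN (1.19 ± 0.31; edgeR, adjusted p = 0.0482), Cd36 was lower and 5 did not pass. The part of a sinus cell share in the Ackr4 level was not tested.

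Gpr182 followed Ackr2 between the nodes but not in the tumor. Its level was 591, 656, 680, 744 and 723 CPM in NdLN libraries 1 to 5, and 1097, 1052, 911, 927 and 884 CPM in TdLN libraries 1 to 5. In Tumor libraries 1 to 5 it was 42.5, 48.9, 46.2, 49.6 and 41.8 CPM. The 3 groups did not overlap, in the order TdLN, NdLN, Tumor, and the Tumor libraries lay close together. The means were 679 ± 60.2, 974 ± 94.2 and 45.8 ± 3.55 CPM (SD, n = 5). The level was 1.44-fold higher in TdLN than in NdLN libraries, a log2 difference of 0.52 ± 0.09 (edgeR, adjusted p = 0.00627). In the tumor it was 21.3-fold lower than in TdLN, at -4.41 ± 0.11 (edgeR, adjusted p = 7.64e-13), the smallest adjusted p of the 13887 genes tested there. Against NdLN the log2 fold change was -3.89 ± 0.10 (edgeR, adjusted p = 1.52e-12). Zbtb39 overlaps Gpr182 by 74 bases on the opposite strand, 1.87% of the exon bases of Gpr182, and had at most 8.604 CPM in any library.

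Ackr3, the Cxcl12 scavenger, was highest in NdLN, lower in TdLN and lowest in Tumor libraries. Its level was 481, 604, 380, 479 and 361 CPM in NdLN libraries 1 to 5, and 212, 278, 250, 257 and 287 CPM in TdLN libraries 1 to 5. In Tumor libraries 1 to 5 it was 62.0, 67.6, 59.5, 65.7 and 67.4 CPM. No 2 groups overlapped. The means were 461 ± 97.3, 257 ± 29.4 and 64.4 ± 3.54 CPM (SD, n = 5). The level was 1.796-fold lower in TdLN than in NdLN libraries, a log2 difference of -0.84 ± 0.13 (edgeR, adjusted p = 0.00336). In the tumor it was 3.98-fold lower than in TdLN, at -1.99 ± 0.13 (edgeR, adjusted p = 6.76e-09). Against NdLN it was 7.15-fold lower, at -2.84 ± 0.14 (edgeR, adjusted p = 1.82e-10).

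Ackr1, the Duffy antigen receptor, was per kb of exons the lowest of the 5 in every node library. Its level was 14.1, 20.3, 23.2, 27.1 and 15.4 CPM in NdLN libraries 1 to 5, and 12.2, 10.7, 15.5, 16.4 and 10.4 CPM in TdLN libraries 1 to 5. In Tumor libraries 1 to 5 it was 0.655, 0.551, 0.506, 0.345 and 1.45 CPM, which rests on 12 to 50 counts a library. The node groups overlapped, and every Tumor library lay below all node libraries, with Tumor 5 above the other 4. The means were 20.02 ± 5.42, 13.0 ± 2.74 and 0.701 ± 0.433 CPM (SD, n = 5). In TdLN against NdLN the log2 fold change was -0.62 ± 0.30 and did not pass (edgeR, adjusted p = 0.305). In Tumor against TdLN it was -4.21 ± 0.35, an 18.5-fold lower level (edgeR, adjusted p = 7.93e-08). In Tumor against NdLN it was -4.83 ± 0.36 (edgeR, adjusted p = 1.89e-08).

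Markers of blood endothelium, where Ackr1 is known to be made, were also read. The 10 genes of that list summed to 3025 to 6083 CPM for NdLN, 2979 to 7382 CPM for TdLN and 596 to 1117 CPM for Tumor libraries, with none at 0. The node sums were mostly Plvap, with means of 2501 (NdLN) and 3324 CPM (TdLN), and Glycam1, with 1453 (NdLN) and 2022 CPM (TdLN). No other gene of the list had a node mean above 131 CPM, so these sums say little of the rest. In TdLN against NdLN libraries 3 of the 10 were lower (Vwf, Emcn and Flt1) and 7 did not pass, Plvap and Glycam1 among them. In Tumor against TdLN libraries Cd34 and Ly6c1 were higher, 6 were lower and Vwf and Flt1 did not pass. Markers of red cells were low, at 0.261 to 55.8 CPM over 6 genes. Their part in the Ackr1 levels was not tested. Ackr1 shares 361 bases, 25.7% of its exon bases, with Cadm3 on the same strand, and reads of that stretch cannot be told apart. The counts of Cadm3 were 9 to 22 a library for NdLN, 1 to 9 for TdLN and 7 to 88 for Tumor libraries.

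**Figure D2:**
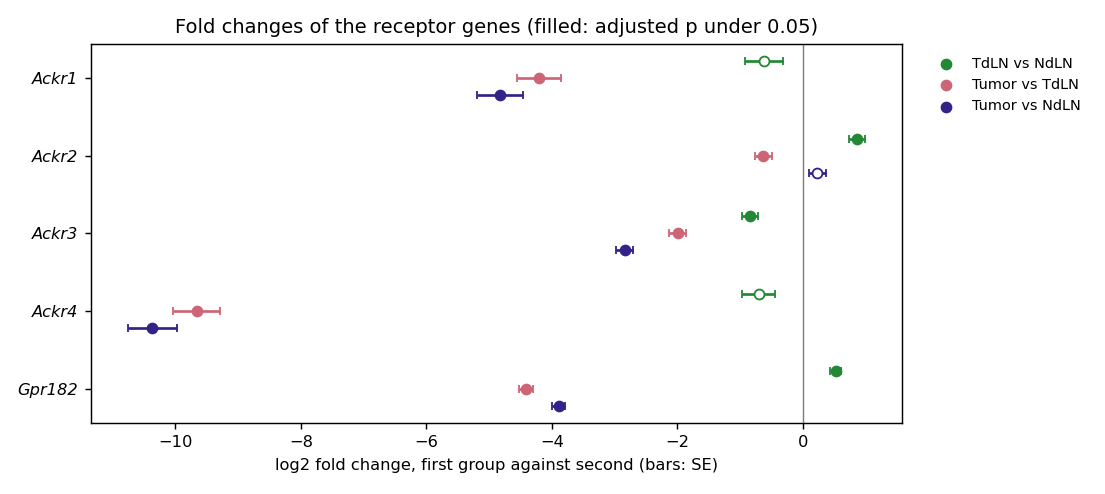
Log2 fold change of each receptor gene (first group against second, bars are SE) from edgeR in 3 comparisons; filled points had an adjusted p under 0.05. Ackr4 lies at -9.66 and -10.37 in the tumor comparisons, while Ackr2 stays between -0.63 and 0.86 in all 3.

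The family's makeup was compared per length of exons, since counts of different genes are not comparable without it. The summed level of the 5 genes was 857 ± 117 CPM per kb for NdLN, 761 ± 19.0 for TdLN and 131 ± 10.7 for Tumor libraries (SD, n = 5). Ackr4 made up 51.9% ± 5.37 of that sum for NdLN, 36.1% ± 5.60 for TdLN and 0.269% ± 0.160 for Tumor libraries. Ackr2 made up 9.89% ± 1.07, 20.2% ± 3.81 and 75.6% ± 2.31 in the same order. With the union of exons as length, the dominant receptor transcript was thus Ackr4 in 9 of the 10 node libraries and Ackr2 in all 5 Tumor libraries. Gpr182 was first in TdLN 1. The shares, order and ranks per kb depend on the length used. For Ackr4 the union is 5380 bases and the longest transcript 2698, while for Gpr182 both are 3954. With the longest transcript the Ackr4 level per kb would be higher, and shares with that length were not read. Gpr182 made up 20.4% ± 3.94, 32.4% ± 3.20 and 8.89% ± 0.824, and Ackr3 16.04% ± 2.396, 10.1% ± 1.07 and 14.8% ± 1.59. Ackr1 made up 1.70% ± 0.548, 1.22% ± 0.257 and 0.387% ± 0.240, and its share in every Tumor library (0.173% to 0.791%) was below that in every node library (0.966% to 2.27%).

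Within libraries, and with the union of exons as length, the order per kb was stable. In 4 of 5 NdLN libraries it ran Ackr4, Gpr182, Ackr3, Ackr2, Ackr1, and in NdLN 2 Ackr3 stood above Gpr182. In all 5 TdLN libraries Ackr2 stood above Ackr3. In all 5 Tumor libraries Ackr2 led, followed by Ackr3 and Gpr182, and Ackr4 and Ackr1 traded the last places. Among 13855 genes with a level per kb, Ackr4 stood at rank 78 for NdLN, 150 for TdLN and 11825 for Tumor libraries. Ackr2 stood at rank 636, 318 and 560, so its place in the transcriptome moved little beside that of Ackr4.

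**Figure D3:**
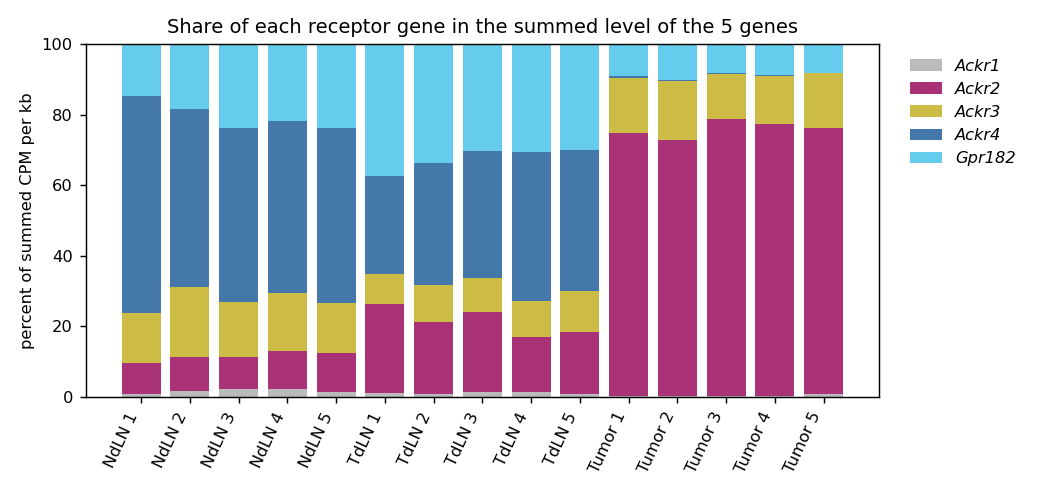
Share of each receptor gene in the summed CPM per kb of the 5 genes (percent, stacked bars from 0 to 100) for each of the 15 libraries. With the union of exons as length, Ackr4 holds the largest share in 9 of 10 node libraries, and Ackr2 holds 72.6% to 78.6% in the 5 Tumor libraries.

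Ratios of 2 members inside a library do not depend on scaling between libraries, and all 10 pairs were tested in 3 comparisons (two-sided exact permutation test, Benjamini-Hochberg over 30, n = 5 per group, smallest possible p 0.00794). Of 10 pairs, 6 passed in TdLN against NdLN, 9 in Tumor against TdLN and 9 in Tumor against NdLN. The 10 pairs draw on the same 5 genes and are not independent. How often pairs of other genes would pass was not tested. The Ackr2 to Ackr3 ratio rose by 1.68 on the log2 scale from NdLN to TdLN (exact permutation test, adjusted p = 0.00992). The Ackr2 to Gpr182 ratio differed by 0.33 between the nodes and did not pass (exact permutation test, adjusted p = 0.0641), but it passed without NdLN 1 (0.41) or without TdLN 4 (0.40; adjusted p = 0.0286 for each). From TdLN to Tumor the Ackr2 to Gpr182 ratio rose by 3.79 and the Ackr2 to Ackr4 ratio by 9.16 (exact permutation test, adjusted p = 0.00992 for each). The pair that did not pass in either tumor comparison was Ackr1 to Gpr182, at 0.07 against TdLN (exact permutation test, adjusted p = 0.897) and -1.05 against NdLN (adjusted p = 0.0571). Without Tumor 5 the latter was -1.38 and passed (exact permutation test, adjusted p = 0.00992).

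Each member was also set against a lymphatic reference, the geometric mean CPM of Prox1, Flt4, Pecam1 and Cdh5 in the same library. The reference was 809 ± 60.02 CPM for NdLN, 652 ± 54.7 for TdLN and 240 ± 70.4 for Tumor libraries (SD, n = 5). Its 4 genes did not move alike in Tumor against TdLN libraries. Prox1, the lymphatic identity factor, had a log2 fold change of -2.36 ± 0.15 and Pecam1 of -2.10 ± 0.19. Cdh5, of endothelial junctions, had -0.83 ± 0.15, while Flt4, the VEGF-C receptor, did not pass at -0.46 ± 0.26 (edgeR, adjusted p = 0.146).

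Set against the reference, Ackr4, Gpr182 and Ackr1 stayed lower in the tumor, by log2 differences of -8.29, -2.91 and -2.87 against TdLN (two-sided exact permutation test, adjusted p = 0.0108 for each, n = 5 per group). These 3 were lower also with each of the 4 reference genes alone. Ackr2 went the other way: its ratio to the reference was 0.326 ± 0.0393 for NdLN, 0.735 ± 0.117 for TdLN and 1.39 ± 0.426 for Tumor libraries. The difference between Tumor and TdLN was 0.88 on the log2 scale (exact permutation test, adjusted p = 0.0108), against -0.63 in CPM. That direction against TdLN rests on the choice of reference. The log2 difference was 1.76 with Prox1 alone and 1.55 with Pecam1 alone. With Cdh5 alone it was 0.25 (exact permutation test, adjusted p = 0.190) and with Flt4 alone -0.05 (adjusted p = 0.865). In Tumor against NdLN the Ackr2 difference was 2.05 (exact permutation test, adjusted p = 0.0108). It was 0.84 to 3.13 there with each of the 4 reference genes alone (exact permutation tests, adjusted p at most 0.0397).

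Ackr3 differed from the reference by -0.49 in Tumor against TdLN and did not pass (exact permutation test, adjusted p = 0.111), though it passed without Tumor 1 (-0.67, adjusted p = 0.0183). Its sign also turned with the reference, at 0.39 with Prox1 alone and 0.18 with Pecam1 alone, against -1.12 with Cdh5 alone and -1.42 with Flt4 alone. In Tumor against NdLN it passed, at -1.01 (exact permutation test, adjusted p = 0.0198), but did not pass with Prox1 alone (0.082, adjusted p = 0.722) or with Pecam1 alone (-0.21, adjusted p = 0.519). The ratio of Ackr3 to the reference was 0.567 ± 0.0886 for NdLN, 0.396 ± 0.0579 for TdLN and 0.293 ± 0.107 for Tumor libraries. Between the nodes, Ackr2 and Gpr182 stayed higher in TdLN, by 1.17 and 0.83, and Ackr3 stayed lower, by -0.52 (exact permutation test, adjusted p = 0.0108 for each). The Ackr3 difference did not pass with Prox1 alone, at -0.31 (exact permutation test, adjusted p = 0.169). The Ackr4 difference between the nodes was -0.38 and did not pass (exact permutation test, adjusted p = 0.111). It passed without TdLN 4 (-0.49, adjusted p = 0.0132) and with Cdh5 alone (-0.43, adjusted p = 0.0458).

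**Figure D4:**
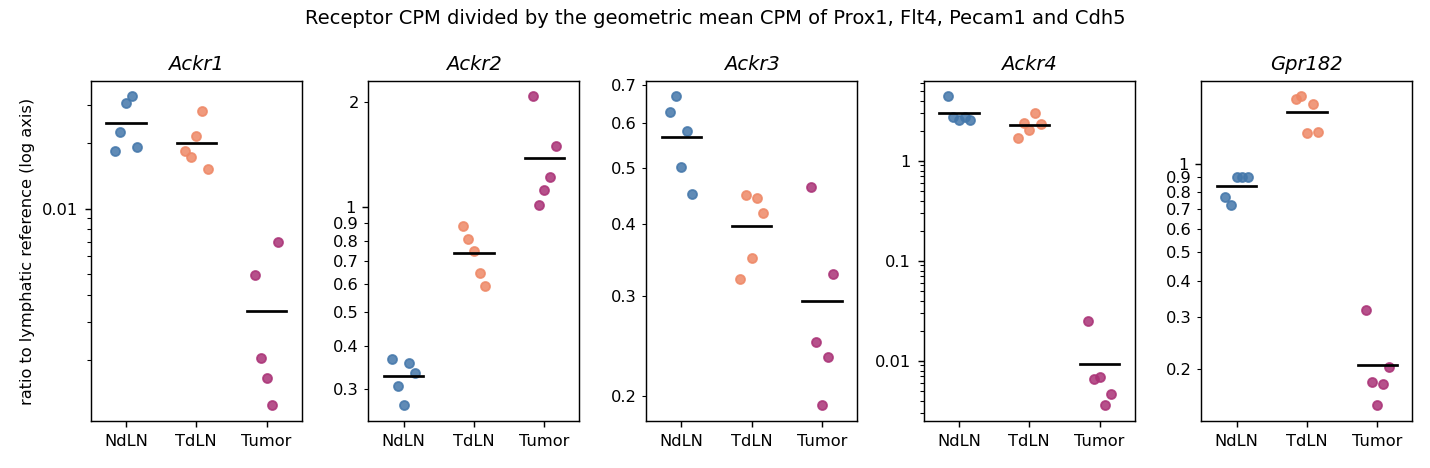
Ratio of each receptor's CPM to the geometric mean CPM of Prox1, Flt4, Pecam1 and Cdh5 in the same library (log axis, a separate scale for each gene); points are libraries and lines are group means. The Ackr2 ratio is highest in Tumor libraries, at 1.012 to 2.08, while the Ackr4, Gpr182 and Ackr1 ratios are lowest there.

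For each receptor, the genes with the most similar pattern over the 15 libraries were named by the smallest root mean square difference of centred log2 CPM. For Ackr3 they were Rassf9 (0.16), Chrnb1 (0.16) and Ccn1 (0.20), against a spread of Ackr3 itself of 1.20. For Gpr182 they were Lifr (0.24), Cxcl16 (0.31) and Birc2 (0.32), against 1.97. For Ackr2 they were Snx2 (0.23), Sh3gl1 (0.23) and Cit (0.24), against 0.41. Ackr4 was nearest to Clec4g (0.54), Csf2rb2 (0.64) and Dsg2 (0.77), against 4.78, and Ackr1 to Ccl19 (0.42), Hs3st1 (0.43) and Jam3 (0.44), against 2.20. These distances are descriptions over libraries that share their 3 groups. Within the family the closest pair was Ackr1 and Gpr182, at 0.69, and the farthest Ackr2 and Ackr4, at 4.73.

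The genes of the receptors' ligands, of the conventional receptors for the same ligands and of the uptake machinery were read in the same fit. Of 46 such genes, 38 passed the filter. In TdLN against NdLN libraries 1 was higher and 1 lower, against 3.49% of all tested genes. In Tumor against TdLN libraries 16 were higher and 14 lower, where 31.9% and 30.1% of all tested genes were, with a median log2 fold change of 0.41 beside 0.04 for all tested genes. In Tumor against NdLN libraries 15 were higher and 16 lower, where 34.0% and 32.5% of all tested genes were, with a median of -0.57 beside 0.04.

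Ligand genes of Ackr2 were mostly higher in the tumor libraries. Of 9 tested, 8 were higher in Tumor than in TdLN libraries and Ccl22, at 0 counts in all Tumor libraries, did not pass, with a median log2 fold change of 3.20. In Tumor against NdLN libraries 7 were higher and Ccl22 was lower, at -7.49 ± 1.91 (edgeR, adjusted p = 0.00464). That Ccl22 call rests on few reads, with 0 to 40 counts a library and a mean of 0.662 CPM in NdLN, and the ranges overlapped. Ccl7 did not pass there, at -0.45 ± 0.21 (edgeR, adjusted p = 0.0657). Ccl2 was 1.49-fold higher than in NdLN, with overlapping ranges (edgeR, adjusted p = 0.0140). Ccl8, an attractant of monocytes, went from 1.16 ± 0.929 CPM in TdLN to 33.3 ± 16.3 CPM in Tumor libraries (SD, n = 5), a log2 difference of 4.84 ± 0.68 (edgeR, adjusted p = 1.81e-05). Ccl11, an eosinophil attractant, went from 0.943 ± 0.717 to 20.8 ± 10.9 CPM (edgeR, adjusted p = 2.64e-05), with Tumor 5 highest. Ccl2, the main monocyte attractant, was 215 ± 40.9 CPM in Tumor and 91.9 ± 19.2 CPM in TdLN libraries (edgeR, adjusted p = 5.07e-05). Ccl5 went from 3.74 ± 1.69 to 23.3 ± 11.3 CPM (edgeR, adjusted p = 0.000157). Between the nodes the call in this list was Ccl7, lower in TdLN at 25.2 ± 2.81 against 69.3 ± 11.4 CPM (edgeR, adjusted p = 0.00252). The leukocyte and fibroblast markers given above were higher in the same Tumor libraries, and their part in these levels was not tested.

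The ligand genes of Ackr4 split. Ccl21a, the CCR7 ligand that guides dendritic cells into lymphatics, was 135 ± 71.0 CPM in TdLN and 1226 ± 367 CPM in Tumor libraries, a log2 difference of 3.18 ± 0.37 (edgeR, adjusted p = 2.85e-06). Its near-identical gene copies make that count uncertain. Ccl25, an attractant of gut-homing T cells, rose by 1.64 ± 0.28 (edgeR, adjusted p = 0.000102). Ccl19, the other CCR7 ligand, fell by 5.03 on the log2 scale to 23 counts over the 5 Tumor libraries (edgeR, adjusted p = 3.22e-07). Ccl20, the CCR6 ligand, was the gene higher in TdLN than in NdLN, at 587 ± 216 against 78.6 ± 33.0 CPM (edgeR, adjusted p = 0.00676). In Tumor libraries it was at 0.454 ± 0.508 CPM, a log2 fold change of -10.42 ± 0.76 against TdLN (edgeR, adjusted p = 1.77e-08). The group with the lowest Ackr4 level was thus the one with the highest Ccl21a level.

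**Figure D5:**
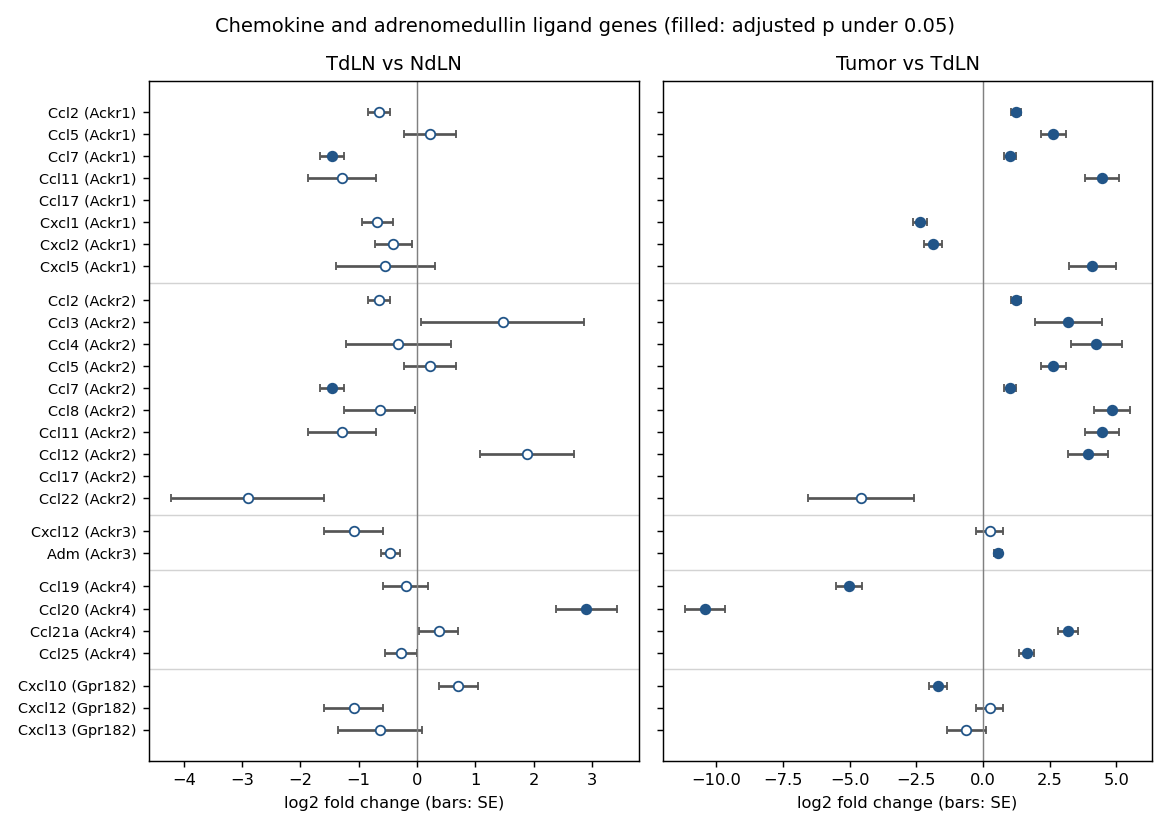
Log2 fold change (bars are SE) of the ligand genes in TdLN against NdLN and in Tumor against TdLN, grouped by receptor; filled points had an adjusted p under 0.05, and Ccl17, which did not pass the filter, has no point. In Tumor against TdLN the Ackr2 ligands lie mostly above 0, with a median of 3.20, and the Ackr4 ligands lie on both sides.

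Of the ligand genes of Ackr3, Cxcl12 did not pass in any comparison and varied widely, at 138 ± 84.3, 64.7 ± 34.0 and 76.9 ± 39.5 CPM in NdLN, TdLN and Tumor libraries (SD, n = 5). Adm, which encodes adrenomedullin, was 66.5 ± 15.3 CPM in TdLN and 98.2 ± 19.9 CPM in Tumor libraries, with overlapping ranges (edgeR, adjusted p = 0.00622). In NdLN libraries it was 91.3 ± 5.63 CPM, and Tumor against NdLN did not pass, at 0.10 ± 0.16 (edgeR, adjusted p = 0.576). Of Calcrl and its partner genes Ramp1, Ramp2 and Ramp3, 3 of 4 were lower in the tumor, and Ramp1 did not pass. Calcrl, the main subunit of the signalling adrenomedullin receptor, was 439 ± 48.9 CPM in TdLN and 114 ± 23.0 CPM in Tumor libraries (edgeR, adjusted p = 2.95e-08). Ramp2, its partner in vessels, was 828 ± 204 and 329 ± 56.3 CPM (edgeR, adjusted p = 3.16e-06). Of the proposed Gpr182 ligands, Cxcl10 was 548 ± 174 CPM in TdLN and 169 ± 72.0 CPM in Tumor libraries (edgeR, adjusted p = 0.000446), while Cxcl12 and Cxcl13 did not pass in any comparison.

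Of the 7 tested ligand genes of Ackr1, 5 were higher and 2 lower in Tumor than in TdLN libraries. The 2 lower ones were the neutrophil attractants Cxcl1, at 172 ± 49.3 against 33.3 ± 10.9 CPM (edgeR, adjusted p = 2.62e-06), and Cxcl2, at 15.2 ± 6.47 against 4.17 ± 1.17 CPM (edgeR, adjusted p = 0.000173). Ccl2, Ccl5, Ccl7 and Ccl11, which Ackr1 shares with Ackr2, and Cxcl5 were the higher ones. Against NdLN 4 were higher and 2 lower, and Ccl7 did not pass.

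Conventional receptors for these ligands were scarce. Of 13 genes, 7 passed the filter. Ccr2 and Cxcr3 were higher and Cxcr5 was lower in Tumor than in TdLN libraries. Cxcr3, the receptor of Cxcl10, was 13.1 ± 4.79 CPM in Tumor and 4.47 ± 1.07 CPM in TdLN libraries (edgeR, adjusted p = 0.00102). Ccr7 was 2.52 ± 1.12 CPM in TdLN and 1.90 ± 1.21 CPM in Tumor libraries and did not pass (edgeR, adjusted p = 0.646). In NdLN libraries it ranged from 0.255 to 25.4 CPM. Tumor against NdLN passed as lower, at -2.44 ± 0.77 (edgeR, adjusted p = 0.0110), though the ranges overlapped. The 6 that did not pass the filter had at most 197 counts over the 5 libraries of a group. Among the 6 genes of arrestins and receptor kinases, which carry receptors into the cell, Arrb1, Arrb2, Grk3 and Grk5 were lower in Tumor than in TdLN libraries, Grk2 was higher and Grk6 did not pass. Grk3 had 1 count over the 5 Tumor libraries and 382 over the TdLN libraries. Arrb1 was 394 ± 58.0 CPM in TdLN and 99.1 ± 34.3 CPM in Tumor libraries (edgeR, adjusted p = 2.18e-06), and Grk5 29.9 ± 1.95 and 11.3 ± 3.09 CPM (edgeR, adjusted p = 5.21e-06). Ccrl2, a relative that presents its ligand at the cell surface, was 57.0 ± 9.98 CPM in TdLN and 17.2 ± 6.53 CPM in Tumor libraries (edgeR, adjusted p = 2.61e-05).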

How the data were processed

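The authors deposited 1 table of unnormalized whole-number read counts, with 21839 genes and 15 libraries. CASAVA 1.8.2, STAR 2.4, featureCounts 1.4.6 and build GRCm38 were used, per the submitters' processing notes. RNA was amplified with a low-input kit and read as short single reads, per the labels' protocols. For the annotation release and strand setting, nothing is stated (not given in the sources used here), so reads of overlapping genes cannot be told apart. GENCODE M21 matched 21628 IDs. The reads were amplified and carry no molecular identifiers, so depth sets counting error only.

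The tests across genes used edgeR 4.0.16 under R 4.3.3 (TMM, filterByExpr, robust glmQLFit, glmQLFTest) in 1 fit of all 15 libraries, called at a Benjamini-Hochberg adjusted p under 0.05 over 13887 genes. The SE of a log2 fold change comes from the quasi-likelihood F statistic. CPM used TMM factors. Levels per kb used the union of exons. Ratios of members (prior count 0.5) and levels against Prox1, Flt4, Pecam1 and Cdh5 were tested with exact permutation tests over libraries. The edgeR step was tested on simulated data. No pair of libraries within a group agreed within sampling noise.

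The members, lists and tests were chosen with earlier results of these data known. Named genes were the 5 receptors, up to 4 genes with the smallest adjusted p of each linked list plus genes on which a count turns, the 3 nearest patterns (prior count 2; no predicted genes) and the marker lists. Alternatives were RLE and upper quartile factors, no filter, CPM of at least 10 in 5 libraries, only the compared groups, a replicate block, limma 3.58.1's voom, DESeq2 1.42.0, each library left out and other references; Flt4 and Cdh5 alone were added after seeing the data. Figures used matplotlib 3.10.9. Results for some genes of the lists are not reported here.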

Additional observations from a re-analysis of the deposited data

Results flagged for a closer look

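Single libraries were compared with the other 4 of their group for the 5 receptors and the linked genes with a mean of at least 1 CPM, 106 groups in all. In 6 of them 1 library stood apart from the others by Dixon's criterion, and chance alone gives about 1 in 20 groups. One of the 6 concerned a receptor: Ackr1 was 1.45 CPM in Tumor 5 and 0.345 to 0.655 CPM in the other Tumor libraries. In the same library Ccl11 was 39.7 CPM against 12.7 to 19.2 CPM in the others, and Cxcl13 was 37.7 CPM against 3.56 to 6.53 CPM. Ccr1 was 4.46 CPM in Tumor 1 and 0.0843 to 0.919 CPM in the other Tumor libraries. Cxcr4 was 2.45 CPM in NdLN 5 and 0.510 to 1.05 CPM in the other NdLN libraries. Grk6 was 63.5 CPM in TdLN 4 and 10.8 to 20.1 CPM in the other TdLN libraries. Without Tumor 5, the lower Ackr1 calls in both tumor comparisons held.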

How the results depend on the processing

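The 15 results of the 5 receptors kept their direction and side of the threshold in all 150 fits with 1 library left out, and in 118 of 120 results under the other settings. The exceptions were Ackr4 in TdLN against NdLN with only the 2 groups compared (-0.70) and with limma's voom (-0.63), where it passed. The number of genes called in TdLN against NdLN was 484, and 818 with limma's voom, 994 with DESeq2, and 225 to 564 with 1 library left out, lowest without TdLN 1. Linked genes called there were 2, and 4 with voom and with DESeq2. Requiring a CPM of at least 10 in 5 libraries left 18 linked genes called in Tumor against TdLN, from 30, and 17 in Tumor against NdLN, from 31, since fewer genes were tested. The replicate numbers showed no clear pairing of the libraries, which does not exclude that same-numbered libraries shared an animal. In the nodes r was -0.09 to 0.25 for same-numbered libraries and -0.36 to 0.28 for the others. There 3 of 10 libraries matched their own number best, against 4 of 10 in Tumor against NdLN and 0 of 10 in Tumor against TdLN. With the replicate block 400 genes were called in TdLN against NdLN and no receptor call changed. Ratios with changed sign had not passed: Ackr1 to Ackr4 in TdLN against NdLN (0.09; -0.15 to 0.23 with 1 library left out, negative without NdLN 1), and Ackr1 to Gpr182 in Tumor against TdLN (0.07; -0.26 to 0.31, negative without TdLN 2 or Tumor 5). Against the lymphatic reference, the sign turned for Ackr3 in Tumor against TdLN with Prox1 (0.39) or Pecam1 alone (0.18), for Ackr3 in Tumor against NdLN with Prox1 alone (0.082; with Pecam1 alone it was -0.21 and no longer passed), and for Ackr2 in Tumor against TdLN with Flt4 alone (-0.049). The causes were not tested. Ackr1 and Ackr4 in Tumor libraries rest on 117 and 294 counts, which limits their precision.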
